A study of Homo sapiens with 6 samples.

Results

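The intracellular clade B serpins of MM.1S cells, SERPINB6, SERPINB1, SERPINB9 and SERPINB8, were described across lenalidomide-resistant cells (LenR, 3 libraries) and cells kept in the solvent DMSO (WT, 3 libraries). MM.1S is a human myeloma line, grown from tumour cells of the antibody-secreting plasma cell type. Both groups came from the same line. LenR cells had been exposed to lenalidomide from 10 nM upward, with the dose raised 10-fold each month for 3 months, which gave 1 resistant line, and the labels do not say whether the drug was present at harvest. Selection and current exposure cannot be told apart in this design. The members were chosen by gene name: all clade B serpins with a row among the 12760 genes of the deposited expression table, which were 4 of the 13 annotated clade B genes. The family itself was chosen because SERPINB6 was known to be low in LenR, so the values of SERPINB6 are given as a description with no test.

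Serpins are protease inhibitors that offer a protease an exposed loop as bait and, once cut, trap the enzyme in an inactive covalent complex. Members of clade B lack a classical secretion signal and mostly act inside the cell, where they protect it from proteases that leak out of its own granules and lysosomes or are delivered by cytotoxic lymphocytes. In human cells, SERPINB6 blocks trypsin-like proteases and cathepsin G. SERPINB1 blocks neutrophil elastase, proteinase 3 and cathepsin G. SERPINB9 blocks granzyme B, a killing protease of T and NK cells, and SERPINB8 is an inhibitor of the proprotein convertase furin.

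SERPINB1, SERPINB9 and SERPINB6 lie side by side on the minus strand of chromosome 6 (GRCh38, GENCODE 29) and the other 10 clade B genes lie on chromosome 18. SERPINB1 spans positions 2832332 to 2842006, SERPINB9 2887266 to 2903280 and SERPINB6 2948159 to 2972165, and no other annotated gene overlaps any of these 3. SERPINB8 spans 63969925 to 64019779 on the plus strand of chromosome 18 and was the only gene of that cluster with a row in the table. It overlaps HMSD and AC009802.1, and 8.92% of its stretches of 50 bases also occur in transcripts of other genes. That share was 0.871% for SERPINB6, 0.249% for SERPINB1 and 4.33% for SERPINB9, and no stretch of 50 bases was shared between any 2 of the members.

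The promoters are shown because 3 members are neighbours with a shared direction of difference, described further on. Each sequence runs from 250 bases before to 50 bases after the annotated start, on the gene's own strand (RefSeq, GRCh38.p14). Capitals mark matches, on either strand, to the 4 motifs searched, which were TATAAA (the TATA box), GGGCGG (the GC box), CCGGAAG (a core that ETS factors bind) and the core of the interferon-stimulated response element, GAAA followed by any 2 bases and GAAA again. SERPINB6 has 4 annotated starts in the table, and the most upstream is shown (chr6:2971518-2971817, minus strand). The others are chr6:2841814-2842113 (SERPINB1, minus strand), chr6:2903260-2903559 (SERPINB9, minus strand) and chr18:63969831-63970130 (SERPINB8, plus strand).
SERPINB6: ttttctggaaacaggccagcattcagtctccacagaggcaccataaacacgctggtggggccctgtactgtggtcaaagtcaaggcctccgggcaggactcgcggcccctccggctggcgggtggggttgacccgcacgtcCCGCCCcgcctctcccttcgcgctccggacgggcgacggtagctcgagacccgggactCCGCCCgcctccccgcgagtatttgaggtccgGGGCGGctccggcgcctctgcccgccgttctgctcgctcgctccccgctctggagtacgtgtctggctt
SERPINB1: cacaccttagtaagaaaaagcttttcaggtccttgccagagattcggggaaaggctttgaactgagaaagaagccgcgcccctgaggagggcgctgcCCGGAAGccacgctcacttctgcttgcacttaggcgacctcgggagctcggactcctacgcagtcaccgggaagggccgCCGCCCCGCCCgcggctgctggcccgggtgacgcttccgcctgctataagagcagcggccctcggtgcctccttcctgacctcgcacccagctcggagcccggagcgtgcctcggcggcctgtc
SERPINB9: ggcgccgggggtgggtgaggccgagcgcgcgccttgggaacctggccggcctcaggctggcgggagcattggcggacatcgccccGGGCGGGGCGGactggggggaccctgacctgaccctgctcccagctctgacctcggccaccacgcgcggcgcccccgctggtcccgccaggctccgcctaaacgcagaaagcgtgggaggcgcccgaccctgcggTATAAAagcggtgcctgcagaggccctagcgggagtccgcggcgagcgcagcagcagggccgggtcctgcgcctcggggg
SERPINB8: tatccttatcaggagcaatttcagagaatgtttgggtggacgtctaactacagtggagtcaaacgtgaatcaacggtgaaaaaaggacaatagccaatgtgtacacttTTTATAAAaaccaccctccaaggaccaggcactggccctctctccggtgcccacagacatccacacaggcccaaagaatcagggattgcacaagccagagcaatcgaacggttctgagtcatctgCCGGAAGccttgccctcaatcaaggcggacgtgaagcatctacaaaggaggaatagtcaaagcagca

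The 3 promoters on chromosome 6 were rich in G and C, at 68.7% in SERPINB6, 65.7% in SERPINB1 and 75.7% in SERPINB9, against 48.7% in SERPINB8 and a median of 58.7% over 35097 promoter windows. GGGCGG matched 3 times in SERPINB6 and 2 times each in SERPINB1 and SERPINB9, and 44.9% of all windows held it. Both pairs of matches in SERPINB1 and SERPINB9 overlap by 1 base. TATAAA was matched in SERPINB9, with its first base 30 bases before the start, and in SERPINB8, where 2 overlapping matches on opposite strands lie 142 and 140 bases before the start (11.5% of all windows). CCGGAAG was matched in SERPINB1 and SERPINB8 (10.3% of all windows). The spaced repeat of GAAA was matched in none of the 4 windows and in 3.58% of all windows. These matches describe the letters only.

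Expression was deposited as FPKM, a read measure scaled for gene length and library size, which allows levels to be compared between genes. Reads worked out from these values totalled 14500140 to 17387914 per library. Plasma cell identity was visible in both groups: all 10 marker genes of that list had rows, with a summed level of 4619 to 5551 FPKM in LenR and 3920 to 4538 FPKM in WT libraries. Of 12 T and NK cell markers 3 had rows (summed 3.95 to 4.71 FPKM in LenR and 4.50 to 4.85 FPKM in WT), of 12 myeloid and neutrophil markers 1, CD33 (0 to 0.157 FPKM in LenR and 1.81 to 2.21 FPKM in WT), and of 10 epithelial and stromal markers 3 (4.90 to 5.90 FPKM in LenR and 4.09 to 4.71 FPKM in WT). Of the plasma cell markers, 5 of 10 were called higher in LenR and none lower (50% called, against 15.1% of all genes; 9 of 10 above 0), and CD33 was called lower. CD38 kept its call in every alternative fit. The calls of SDC1, IRF4, PRDM1 and XBP1 were lost without WT replicate 1 (limma, adjusted p 0.0770 to 0.132) or WT replicate 2 (0.0725 to 0.118). The part of these marker differences in the results below was not tested. The first principal component (58.1% of variance) separated LenR from WT, and the next (26.8%) separated LenR replicate 2 and WT replicate 3 from the rest. WT replicates 1 and 2 differed by little more than sampling noise (median chi-square of reads per gene 1.167 times its expected value, against 3.866 for the next closest pair within a group). The labels call the 3 libraries of a group biological replicates of 1 line without saying how the cultures were separated, so p-values measure the spread between these libraries.

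SERPINB6 was the most abundant member in every library and the one that differed most. It measured 4.46, 4.45 and 4.64 FPKM in LenR replicates 1 to 3, and 18.9, 17.4 and 16.6 FPKM in WT replicates 1 to 3. The LenR libraries lay close to each other and far below every WT library. The means were 4.52 ± 0.105 FPKM in LenR and 17.6 ± 1.16 FPKM in WT (SD, n = 3 each), so LenR held 25.7% of the WT level. On the log2(FPKM + 1) scale, which understates changes of low genes, the fold change was −1.75 (SE 0.068), the fifth lowest of 11276 genes compared. These values rest on 657 reads in LenR and 2612 reads in WT. In LenR, counting error alone gives a coefficient of variation of 6.76%, against 2.32% observed, so the LenR SD understates the uncertainty. In WT counting error gives 3.39%, against 6.58% observed. By mean level SERPINB6 ranked 8572 of the 12760 genes in LenR and 4400 in WT. In bulk RNA, fewer expressing cells and less RNA per cell cannot be told apart. The difference was also present in the libraries that stand apart: LenR replicate 2 minus WT replicate 3 gave −1.69, and the other 4 libraries gave −1.78.

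SERPINB1 also fell, by a smaller amount. It measured 0.713, 1.06 and 0.962 FPKM in LenR, and 1.31, 1.60 and 1.47 FPKM in WT, and the groups did not overlap. The means were 0.912 ± 0.180 FPKM in LenR and 1.46 ± 0.146 FPKM in WT (SD, n = 3 each), a LenR level of 62.6% of WT. They rest on 123 reads in LenR and 198 in WT. The log2 fold change was −0.36 (SE 0.092, 95% confidence interval −0.58 to −0.15), with adjusted p = 0.0350 by limma over all genes tested. Genes were called at adjusted p below 0.05. Of the 11276 genes averaging 1 FPKM or more, 15.1% were called, 6.57% lower and 8.57% higher in LenR. Of the 2 members tested, SERPINB1 was called lower, and SERPINB8 was not called. SERPINB1, at a mean of 1.18 FPKM over the 6 libraries, passed the filter only through its WT level. Without the filter its adjusted p was 0.0237 (limma), in a fit that called 7.29% of 12760 genes lower. The call of SERPINB1 was lost in limma fits without LenR replicate 1 (adjusted p = 0.107), LenR replicate 3 (0.0605), WT replicate 1 (0.0593), WT replicate 2 (0.127) or WT replicate 3 (0.0758), without LenR replicate 2 and WT replicate 3 together (0.0522), and with WT replicates 1 and 2 averaged into 1 sample (0.0780). Its log2 fold change stayed between −0.42 and −0.29 when 1 library was left out. With 0.1 FPKM added before the logarithm in place of 1 FPKM it was −0.63, and with voom on the reads −0.67.

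SERPINB9, the granzyme B inhibitor between SERPINB1 and SERPINB6 on the chromosome, was the least abundant member and was left out of the main test, because its mean over the 6 libraries was 0.380 FPKM. It measured 0.248, 0.0913 and 0.220 FPKM in LenR, and 0.549, 0.378 and 0.791 FPKM in WT. Every LenR library was below every WT library, but the scatter within groups was wide. The means were 0.187 ± 0.0838 FPKM in LenR and 0.573 ± 0.208 FPKM in WT (SD, n = 3 each), a LenR level of 32.6% of WT. The reads behind these values were few, 15, 6 and 16 in LenR and 40, 26 and 48 in WT. Counting error alone gives a coefficient of variation of 28.5% in LenR and 16.2% in WT at these reads, against 44.9% and 36.3% observed in LenR and WT. Without the filter on low values the log2 fold change was −0.40 (SE 0.10, limma, adjusted p = 0.0320), in a fit that called 7.29% of 12760 genes lower. On the recovered reads, with voom and no filter, an alternative chosen after seeing the data, it was −1.61 (SE 0.40, adjusted p = 0.0226), in a fit that called 7.3% of genes lower. The larger value has no pseudocount of 1 FPKM, which exceeds the level of SERPINB9 in all 6 libraries.

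SERPINB8, on chromosome 18, did not pass. It measured 1.87, 2.27 and 2.11 FPKM in LenR, and 2.33, 2.36 and 2.62 FPKM in WT. The highest LenR library lay just under the lowest WT library. The means were 2.08 ± 0.201 FPKM in LenR and 2.44 ± 0.159 FPKM in WT (SD, n = 3 each), from 379 reads in LenR and 448 in WT. The log2 fold change was −0.16 (SE 0.077, limma, adjusted p = 0.226), and its 95% confidence interval ran from −0.34 to 0.02. That interval holds no change as well as a difference of −0.34. SERPINB8 passed in none of its 19 alternative fits (limma, adjusted p 0.111 to 0.496).

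**Figure D1:**
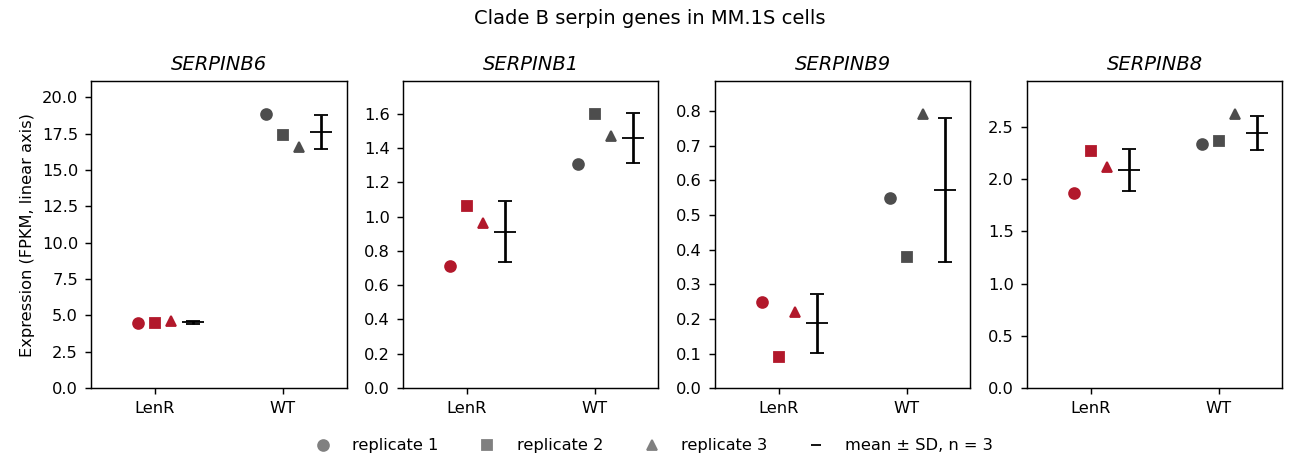
Expression of the 4 clade B serpin genes in FPKM (linear axis from 0, scaled per gene) in LenR and WT libraries; symbols are replicates and bars are mean ± SD, n = 3. SERPINB6 sits near 4.5 FPKM in LenR against 16.6 to 18.9 FPKM in WT, while SERPINB8 differs least.

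In all 4 members the LenR values lay below all WT values, a separation seen in 17% of the 12760 genes, while 35.5% had no overlap in either direction. For SERPINB6 the separation comes with its choice, so nothing is read from the count of 4. The order of levels was the same in every library, SERPINB6 above SERPINB8, SERPINB8 above SERPINB1 and SERPINB1 above SERPINB9, and the ranges of neighbours in this order did not overlap in LenR or in WT. The summed level of the 4 genes was 7.70 ± 0.356 FPKM in LenR and 22.1 ± 0.850 FPKM in WT (SD, n = 3 each). SERPINB6 made up 58.7 ± 2.33% of that sum in LenR and 79.7 ± 2.31% in WT. SERPINB8 made up 27.0 ± 1.62% in LenR and 11.1 ± 1.06% in WT, and SERPINB1 11.8 ± 1.87% and 6.62 ± 0.864% in LenR and WT. The share of SERPINB9 was 2.45 ± 1.16% in LenR and 2.60 ± 0.994% in WT. SERPINB6 was 2.18 ± 0.212 times as abundant as SERPINB8 in LenR and 7.26 ± 0.886 times in WT. With SERPINB6 left out, the other 3 summed to 3.18 ± 0.312 FPKM in LenR and 4.47 ± 0.366 FPKM in WT. These shares contain the difference that chose the family and are a description.

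**Figure D2:**
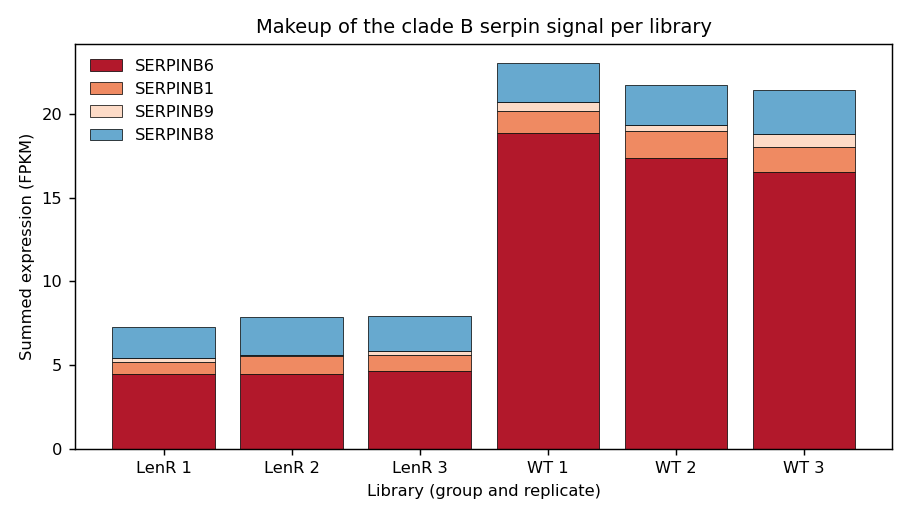
Stacked FPKM of the 4 clade B serpin genes in each library, LenR at the left and WT at the right. The stacks reach 7.29 to 7.94 FPKM in LenR and 21.4 to 23.0 FPKM in WT, and the change in height is mostly the SERPINB6 block.

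Whether the fall of SERPINB6 was shared by its neighbourhood on 6p25 was asked of the other genes there. Within 1 Mb of SERPINB6, 10 other genes were tested. TUBB2A and TUBB2B were called lower and none was called higher, 20% called against 15.1% of all genes, with a median log2 fold change of −0.06, against −0.0023 over all genes tested. SERPINB9, the member next to SERPINB6, was left out of the main test and stood at 32.6% of WT, from 37 reads in LenR and 114 in WT. The tested genes closest to SERPINB6 were NQO2 and RIPK1. NQO2, a quinone reductase whose gene begins 15.8 kb away, measured 14.4, 11.9 and 13.2 FPKM in LenR, and 15.6, 15.1 and 15.1 FPKM in WT. The difference was −0.20 on the log2 scale (SE 0.077, limma, adjusted p = 0.125). RIPK1, a kinase of cell death and NF-kB signalling 91.8 kb away, measured 12.7, 13.8 and 12.9 FPKM in LenR, and 14.9, 14.6 and 14.8 FPKM in WT, with a log2 fold change of −0.16 (adjusted p = 0.129). Both genes were lower in all 3 LenR libraries, and both passed in 1 alternative, with a term for LenR replicate 2 and WT replicate 3 (limma, adjusted p = 0.0415 for NQO2 and 0.0481 for RIPK1). That fit called 1729 genes higher and 1434 lower, against 966 and 741 in the main fit of the same 11276 genes. In the main fit the 95% confidence intervals were −0.38 to −0.03 for NQO2 and −0.30 to −0.02 for RIPK1. The pseudogene HTATSF1P2, which lies within NQO2 on the opposite strand and is named here after its value was seen, was too low for the test. It measured 0.863, 0.793 and 0.582 FPKM in LenR, and 1.27, 0.993 and 1.02 FPKM in WT, with no overlap between the groups. LINC01011, 15.8 kb from SERPINB6, and MYLK4, 197 kb away, were also too low for the test. Both had higher means in LenR, with overlap between the groups. LINC01011 averaged 0.597 FPKM in LenR and 0.497 FPKM in WT, and MYLK4 0.339 FPKM in LenR and 0.277 FPKM in WT.

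TUBB2B and TUBB2A, which encode beta-tubulins, fell past the threshold. TUBB2B, 252 kb from SERPINB6, measured 2.18, 1.53 and 1.73 FPKM in LenR, and 5.96, 5.89 and 5.69 FPKM in WT, which gave −1.29 on the log2 scale (SE 0.091, limma, adjusted p = 0.000135). TUBB2A, 182 kb away, measured 1.92, 1.26 and 1.53 FPKM in LenR, and 2.54, 2.62 and 3.51 FPKM in WT, which gave −0.60 (SE 0.13, adjusted p = 0.0170). Their groups did not overlap in either gene, and both calls held in every alternative that tested them. The tubulin pair share many sequences: 58.7% of the 50-base stretches of TUBB2A and 53.8% of those of TUBB2B occur in other genes' transcripts, mostly in each other. How the reads were split between them is therefore uncertain. TUBB2B also overlaps PSMG4 on the opposite strand, and the strand setting of the counting is not given in the sources used here.

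The 6 other tested genes within 1 Mb did not pass, and lay on both sides of the SERPINB cluster. The replication protein gene WRNIP1, next to SERPINB1, measured 19.2 ± 2.45 FPKM in LenR and 20.8 ± 2.87 FPKM in WT (SD, n = 3 each), with a log2 fold change of −0.11 (SE 0.12). BPHL, a hydrolase gene between RIPK1 and TUBB2A, was at 0.11 (SE 0.091). PSMG4, a proteasome assembly factor, was at 0.11 (SE 0.13) and the transporter gene SLC22A23 at −0.01 (SE 0.074). GMDS, an enzyme of GDP-fucose synthesis, was at 0.13 (SE 0.062) and GMDS-AS1 at 0.04 (SE 0.12). Their adjusted p-values by limma ran upward from 0.216, that of GMDS. Between SERPINB6 and the tubulin pair stood NQO2, RIPK1 and BPHL, and beyond SERPINB1 stood WRNIP1, GMDS and GMDS-AS1. None of them passed in the main fit, but missing the threshold does not show that a gene was unchanged. The intervals of NQO2 (−0.38 to −0.03) and RIPK1 (−0.30 to −0.02) held only lower values in LenR. Whether the fall extends over the region was not tested.

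**Figure D3:**
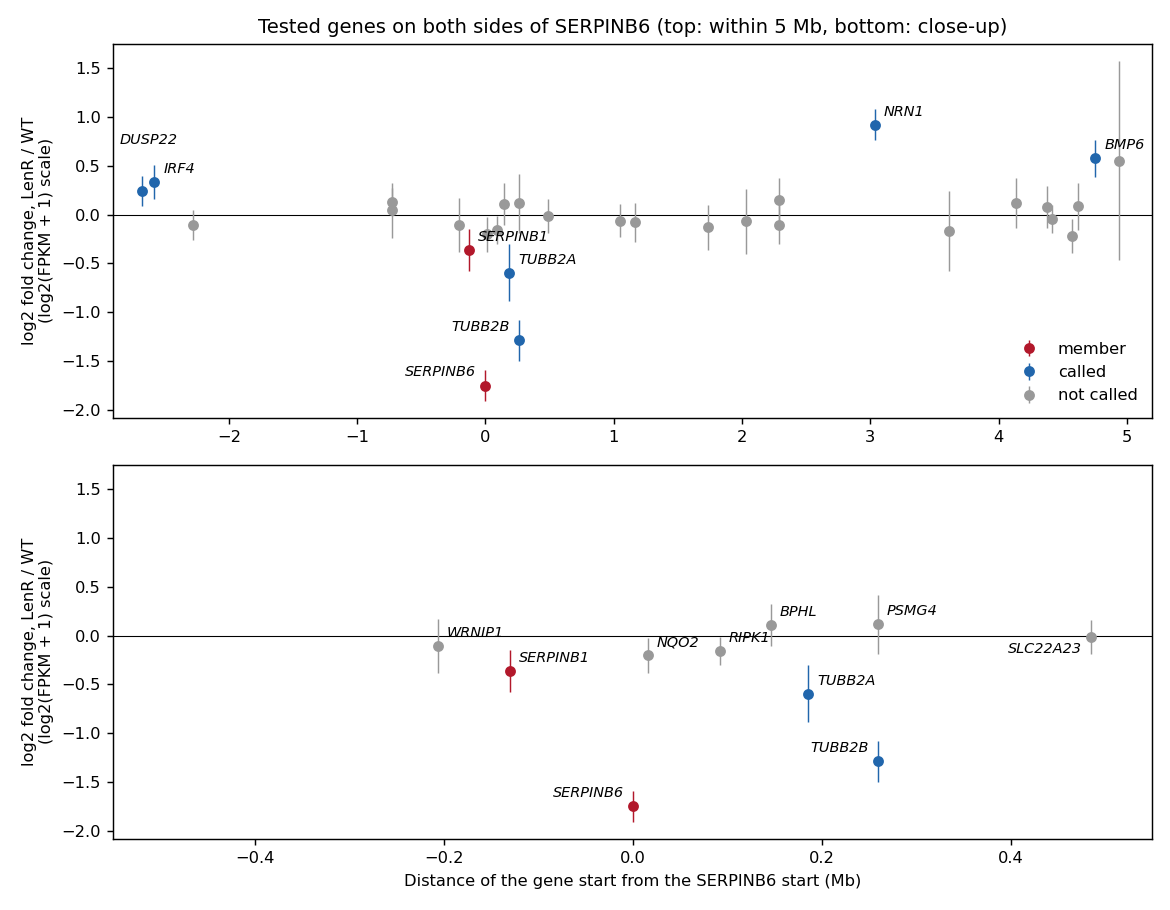
Log2 fold change of LenR over WT (log2(FPKM + 1) scale, bars are 95% confidence intervals) against distance of each tested gene's start from that of SERPINB6 in Mb, with family members in red, other genes past the threshold in blue and the rest in grey. SERPINB6 (−1.75) and TUBB2B (−1.29) stand well below NQO2, RIPK1 and BPHL, which lie between them. TUBB2A (−0.60), past the threshold, also lies between SERPINB6 and TUBB2B. SERPINB9 was not tested and is not drawn.

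In the wider window of 5 Mb, 6 of 28 tested genes were called (21.4%, against 15.1% of all genes), and 13 of the 28 lay above 0 and 15 below (median log2 fold change −0.03). Besides the tubulin pair, 4 genes were called, all higher. NRN1, which encodes the neuronal growth protein neuritin, measured 19.0 FPKM in LenR and 9.60 FPKM in WT (log2 fold change 0.92, limma, adjusted p = 0.000152). BMP6, a bone morphogenetic protein gene, measured 33.1 FPKM in LenR and 21.8 FPKM in WT (0.58, adjusted p = 0.00262). IRF4, a transcription factor of plasma cells, was at 0.33 (adjusted p = 0.0217) and DUSP22, a phosphatase gene named after its value was seen, 0.24 (adjusted p = 0.0429). The call of IRF4 was lost when either WT replicate 1 (adjusted p = 0.106) or WT replicate 2 (0.118) was left out. The call of DUSP22 was lost in each of the 6 fits without 1 library (limma, adjusted p 0.0555 to 0.198).

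Around SERPINB8 on chromosome 18, 1 of 11 tested genes within 5 Mb was called (9.09%, against 15.1% of all genes), with a median log2 fold change of 0.0038. It was BCL2, the apoptosis inhibitor, 650 kb away, which measured 20.7 FPKM in LenR and 16.0 FPKM in WT (log2 fold change 0.35, SE 0.082, limma, adjusted p = 0.0248). That call was lost without LenR replicate 1 (adjusted p = 0.0834), LenR replicate 3 (0.0631) or WT replicate 2 (0.0639).

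Serpins of other clades had 4 rows, of 23 genes listed, and 1 of the 4 fell while none rose (25% called, against 15.1% of all genes). SERPINE2, a secreted inhibitor of thrombin and urokinase also called protease nexin-1, measured 9.89, 10.5 and 9.98 FPKM in LenR, and 18.1, 18.5 and 18.6 FPKM in WT. All LenR values were below all WT values, with a log2 fold change of −0.80 (SE 0.059, limma, adjusted p = 0.000151). SERPINI1, known as neuroserpin, SERPINH1, the collagen chaperone HSP47, and SERPINF1 had log2 fold changes of −0.14, −0.21 and 0.11, with adjusted p of 0.377, 0.236 and 0.305 by limma. The median of the 4 genes was −0.17, against −0.0023 for all genes tested.

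Of 9 tested genes on a list of cystatins and other protease inhibitors outside the serpin family, 2 rose and none was called lower (22.2% called, against 15.1% of all genes, of which 6.57% lower; median log2 fold change 0.14). TIMP1, an inhibitor of matrix metalloproteinases, measured 71.5 FPKM in LenR and 43.4 FPKM in WT (0.71, SE 0.082, limma, adjusted p = 0.00103). PEBP1, a small phosphatidylethanolamine-binding protein known as an inhibitor of RAF kinase, measured 143 FPKM in LenR and 91.9 FPKM in WT (0.63, SE 0.070, adjusted p = 0.000848). CSTB, an intracellular cystatin that blocks lysosomal cathepsins, did not pass at 289 FPKM in LenR and 269 FPKM in WT (0.10, adjusted p = 0.735). RECK, a membrane-anchored metalloproteinase inhibitor named after its value was seen, did not pass either. It measured 2.66, 2.55 and 2.64 FPKM in LenR, and 3.24, 3.04 and 3.02 FPKM in WT, without overlap (−0.18, 95% confidence interval −0.33 to −0.04, limma, adjusted p = 0.0988).

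Among proteases, none of the granule serine proteases listed had a row. Of 14 genes for granzymes, other granule proteins of killer cells and neutrophil proteases, 1 had a row, GNLY, which encodes the pore-forming protein granulysin, at 0.987 to 1.95 FPKM in LenR and 1.11 to 1.45 FPKM in WT. GZMB, the target of SERPINB9, and ELANE, PRTN3 and CTSG, targets of SERPINB1 and SERPINB6, had no row and were not analysed here. FURIN, the convertase that SERPINB8 blocks, measured 18.8 FPKM in LenR and 17.1 FPKM in WT (log2 fold change 0.13, SE 0.15, limma, adjusted p = 0.642), and none of the 3 convertases tested passed (lowest adjusted p = 0.505).

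Cathepsins, the lysosomal proteases, mostly lay above 0. Of 11 tested genes, 4 rose and 1 fell (45.5% called, against 15.1% of all genes), 9 of 11 were above 0, as were 5584 of all 11276 genes, and the median log2 fold change was 0.22. CTSF measured 4.70 FPKM in LenR and 1.24 FPKM in WT (1.36, SE 0.11, limma, adjusted p = 0.000228) and CTSS, a cathepsin of antigen-presenting cells, 31.7 FPKM in LenR and 22.0 FPKM in WT (0.51, adjusted p = 0.00376). CTSH (0.29) and CTSZ (0.29) also rose, with adjusted p of 0.0149 and 0.0277. CTSC, which activates granule serine proteases, fell to 13.4 FPKM in LenR, against 16.8 FPKM in WT (−0.31, adjusted p = 0.0162). The calls of CTSH and CTSC were lost without LenR replicate 1 (adjusted p = 0.0566 for CTSH and 0.0631 for CTSC), WT replicate 1 (0.0711 and 0.0899) or WT replicate 2 (0.0639 and 0.0754). That of CTSZ was lost without LenR replicate 1 (0.0918), LenR replicate 2 (0.0652), WT replicate 1 (0.120), WT replicate 2 (0.113) or WT replicate 3 (0.0528).

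Caspases and inflammasome genes, which clade B serpins have been linked to through caspase-1, gave 1 call among 14 tested genes (7.14%, against 15.1% of all genes; median log2 fold change 0.08). AIM2, a sensor of cytosolic DNA, measured 15.9 FPKM in LenR and 9.91 FPKM in WT (0.63, SE 0.085, limma, adjusted p = 0.00208). CASP1 measured 36.2 FPKM in LenR and 36.2 FPKM in WT, with a difference of −0.0025 on the log2 scale (SE 0.096, limma, adjusted p = 0.991).

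**Figure D4:**
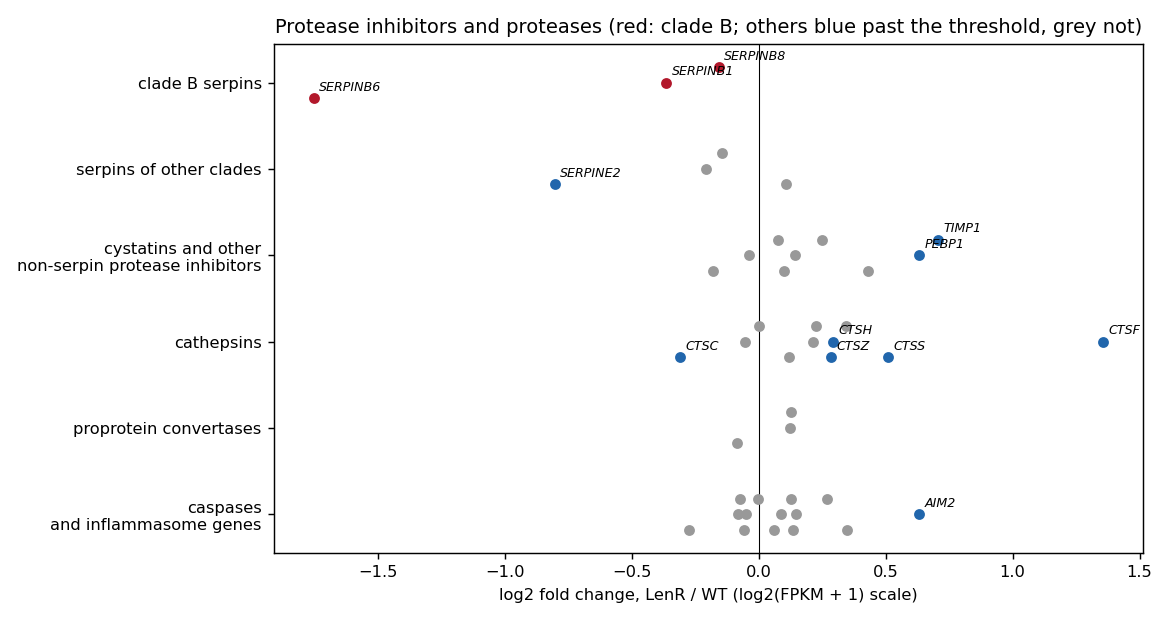
Log2 fold change of LenR over WT (log2(FPKM + 1) scale) for tested genes of 6 lists, 1 point a gene, with clade B serpins in red, other genes past the threshold in blue and the rest in grey; vertical offsets only separate points. SERPINB6 and SERPINE2 lie far left, while CTSF, TIMP1, PEBP1 and AIM2 lie to the right of 0.

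The genes whose pattern over the 6 libraries was most like that of each member were named by the root mean square difference between log2(FPKM + 1) profiles, each centred on its own mean, among 8310 genes averaging 5 FPKM or more. For SERPINB6 they were PVR, which encodes a ligand of NK cell receptors (difference 0.10, Pearson r = 0.99), the giant scaffold gene AHNAK (0.14, r = 0.99) and GPAT2, a glycerol-3-phosphate acyltransferase gene (0.15, r = 0.99). They lie on chromosomes 19, 11 and 2. PVR measured 1.82 FPKM in LenR and 9.08 FPKM in WT, and AHNAK 8.48 FPKM in LenR and 27.6 FPKM in WT. For SERPINB1 the closest were HIPK1, a kinase gene (0.05), STAG1, a cohesin subunit gene (0.05), and UTP20, a gene of ribosome assembly (0.06). For SERPINB9 they were the antisense gene IL10RB-AS1 (0.05) and the pseudogenes DOC2GP (0.09) and OR7E14P (0.10), whose reads can be shared with overlapping or related genes. For SERPINB8 they were SS18, a chromatin remodelling gene, STAT4, a cytokine-activated transcription factor gene, and AFG3L2, a mitochondrial protease gene, each at 0.02. SS18 and AFG3L2 lie on chromosome 18, as SERPINB8 does, but neither lies within 5 Mb of SERPINB8. In LenR the genes closest to SERPINB1 held 77.8% to 78.4% of their WT level, against 62.6% for SERPINB1 itself. Those closest to SERPINB9 held 75.1% to 77.2%, against 32.6% for SERPINB9. Their likeness holds on the log2(FPKM + 1) scale, which understates changes of low genes such as SERPINB1 and SERPINB9. All these likenesses are over 6 libraries that share 1 contrast and are given as a description.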

How the data were processed

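RNA from 6 MM.1S libraries was sequenced, and the authors deposited 1 table of FPKM values for 12760 expressed genes. Per the submitters' processing notes, the build was hg38 and the tools were edgeR 3.40.2, featureCounts 2.0.3, HISAT2 2.2.1 and FastQC 0.11.9, with no role or order given. Annotation, low-value filter and strandedness were not given in the sources used here.

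For every gene the FPKM values were multiples of 1 step, which gave whole reads (within 0.01 of a read) for all 12760 genes. The median was 511 reads. For 119 genes the reads were multiplied by a common factor.

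The test was limma 3.58.1 (R 4.3.3) on log2(FPKM + 1), group as the only term, with trended empirical Bayes (3.75 prior degrees of freedom), for the 11276 genes averaging 1 FPKM or more. It was two-sided, with Benjamini-Hochberg adjustment over all genes tested and a threshold of 0.05. It was also run on simulated reads with a common spread for all genes and independent libraries, unlike these data. That run does not give the error rate here. Positions came from GENCODE 29 and were found for 12453 genes (97.6%). Windows count the distance between gene bodies. Named were the members, tested genes within 1 Mb of SERPINB6, the 3 highest and 3 lowest called genes within 5 Mb, called genes of each list (at most 4 in each direction) and the 3 closest patterns for each member. Members and lists were chosen with earlier results of these data known. Plots used matplotlib 3.10.9 under Python 3.11.15. Replicate numbers were not used as pairs. The alternatives were other pseudocounts, filters, scalings and windows, quantile normalization, voom on the reads, empirical Bayes without the trend, a replicate block, a term for or removal of LenR replicate 2 and WT replicate 3, averaging WT replicates 1 and 2, and leaving out each library.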

Additional observations from a re-analysis of the deposited data

How the results depend on the processing

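The direction of all 4 members was the same in every alternative run for them. Because all LenR values lay below all WT values in each member, leaving out libraries or changing the pseudocount or filter could not reverse it. SERPINB6 had log2 fold changes of −1.94 and −1.85 with pseudocounts of 0.1 and 0.5, −1.95 with voom on the reads and −1.95 with voom and no filter, and −1.79 to −1.70 with 1 library left out. SERPINB9 had −1.23 and −0.63 with those pseudocounts, −1.61 with voom and no filter and −0.49 to −0.30 with 1 library left out. SERPINB1 had −0.63 and −0.48 with those pseudocounts and −0.67 with voom on the reads, and kept its call in 11 of 19 alternatives. It was lost (limma) with the replicate block (−0.36, adjusted p = 0.0526), without LenR replicate 2 and WT replicate 3 (−0.42), with WT replicates 1 and 2 averaged (−0.37), and in 5 of 6 fits without 1 library (−0.42 to −0.29 over all 6). SERPINB8 passed in none.

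Called higher and lower were 966 and 741 genes, and with the replicate block 496 and 411. They were 601 and 474 at a mean of at least 5 FPKM, 1729 and 1434 with a term for LenR replicate 2 and WT replicate 3, 579 and 476 with WT replicates 1 and 2 averaged, 1030 and 794 without both LenR replicate 2 and WT replicate 3, and 545 to 919 and 461 to 681 without 1 library. Called neighbours within 1 Mb of SERPINB6 were 0 at a mean of at least 5 FPKM, which leaves out both tubulins, 4 with that term, and 2 in each fit without 1 library. Within 5 Mb they were 4 to 6 without 1 library, and 2 in a window of 2 Mb. For SERPINB8 they were 0 with the replicate block or with WT replicates 1 and 2 averaged, 4 with that term and 0 to 1 without 1 library. The calls of IRF4, SDC1, PRDM1, XBP1, DUSP22, BCL2, CTSC, CTSH and CTSZ were also lost with the replicate block and with WT replicates 1 and 2 averaged. The cause was not tested. Of the uncalled genes, GMDS-AS1, PSMG4 and SLC22A23 changed sign when 1 library was left out, with log2 fold changes of −0.065 to 0.13, −3.96e-05 to 0.20 and −0.0604 to 0.022. Same-numbered libraries did not deviate together (r of deviations 0.02, −0.56 and −0.68 for numbers 1 to 3). Reads limit SERPINB9 most, with 6 to 48 per library.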
